A study of Mus musculus with 2 samples.

Results

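A cluster of 6 neighbouring genes of the interleukin-1 receptor family on mouse chromosome 1 was described in T-helper 1 cells by their open chromatin: Il1r2, Il1r1, Il1rl2, Il1rl1, Il18r1 and Il18rap, in this order along the plus strand. Every open region of either replicate that overlapped 1 of the 6 gene bodies of the GENCODE M21 annotation, or the 20 kb on either side, was taken. Replicate 1 had 56 such regions of 98786 on the assembled chromosomes, and replicate 2 had 50 of 91403. Regions of both lists that overlapped by at least 1 bp were joined, which left 58 regions of 104044. Of these, 45 were shared by both replicates, 9 were found in replicate 1 alone and 4 in replicate 2 alone. All positions are on GRCm38 (mm10), distances run from the first annotated start of the named gene, and paired values give replicate 1 first.

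The assay is labelled as ATAC-seq, in which a transposase cuts and tags accessible DNA, on primary T-helper 1 cells of C57BL/6NJ mice. The series has 1 group, 2 biological replicates, and no other treatment or genotype. The replicates are separate biosamples under a common donor identifier, of uncollected sex and unknown age, and separate animals are not stated, so the spread between them may be technical. Names of the regions carry further words (a time in hours, ASTARR, insert, masked), and their meaning is not stated. The signal may therefore come from plain ATAC-seq or from the inserts of a reporter library, and the term open region follows the labels. With 1 group no test between conditions exists, so counts, ranks and both replicates' values are given. The deposited lists hold no read numbers, so depth is unknown.

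Receptors of this family are single-pass membrane proteins that pair a ligand-binding chain with an accessory chain and signal through MyD88 and IRAK kinases to NF-κB and p38. Il18r1 and Il18rap encode the binding and accessory chains of the interleukin-18 receptor, through which interleukin-18 acts with interleukin-12 to raise interferon-γ in T-helper 1 cells. Il1rl1 encodes ST2, the interleukin-33 receptor, best known from Th2 cells, group 2 innate lymphoid cells, mast cells and regulatory T cells. Il1rl2 encodes the interleukin-36 receptor, Il1r1 the signalling receptor for interleukin-1, and Il1r2 a decoy receptor that binds interleukin-1 without a signalling domain.

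The sequences below show what lay at the centre of some of the regions that the results turn on. For each gene from Il1r2 to Il1rl2 it is the region with the smallest q value of its window. For Il1rl1 these are the region with the highest signal, the region at the first start and the strongest region in the gene body. For the interleukin-18 receptor genes it is the DNA just before the first start, inside the promoter region. Sequences are GRCm38, plus strand, 5′ to 3′. Capitals mark exact matches, on either strand, to short motifs of transcription factor families. TGANTCA is the motif of the AP-1 factors, TGTGGT that of the RUNX factors and TCACAC that of T-box factors such as T-bet. STAT factors were searched with TTCNNNGAA, GATA factors with AGATAA, NFAT factors with TGGAAA and ETS factors with ACTTCCT. The IRF motif searched is marked as well. A match describes letters, not a bound factor.
Il1r2 at −18 kb (chr1:40055961-40056161): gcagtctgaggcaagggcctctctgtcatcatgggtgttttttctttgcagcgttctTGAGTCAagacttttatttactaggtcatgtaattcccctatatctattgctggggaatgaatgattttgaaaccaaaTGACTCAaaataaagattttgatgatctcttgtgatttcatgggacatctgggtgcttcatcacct
Il1r1 at 11.3 kb (chr1:40236250-40236450): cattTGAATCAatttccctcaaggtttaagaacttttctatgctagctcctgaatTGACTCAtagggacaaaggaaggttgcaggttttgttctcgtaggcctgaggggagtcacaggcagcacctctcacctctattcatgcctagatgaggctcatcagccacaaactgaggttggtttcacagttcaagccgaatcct
Il1rl2 at 61.7 kb (chr1:40386229-40386429): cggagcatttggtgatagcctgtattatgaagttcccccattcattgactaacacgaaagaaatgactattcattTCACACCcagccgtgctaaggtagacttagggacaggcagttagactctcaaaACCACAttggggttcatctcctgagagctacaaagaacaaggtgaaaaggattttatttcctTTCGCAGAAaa
Il1rl1 at −16.3 kb (chr1:40413174-40413374): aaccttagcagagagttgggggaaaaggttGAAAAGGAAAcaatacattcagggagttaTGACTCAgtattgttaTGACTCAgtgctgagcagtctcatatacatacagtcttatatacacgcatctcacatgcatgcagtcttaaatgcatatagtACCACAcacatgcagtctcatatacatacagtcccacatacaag
Il1rl1 first start (chr1:40429053-40429253): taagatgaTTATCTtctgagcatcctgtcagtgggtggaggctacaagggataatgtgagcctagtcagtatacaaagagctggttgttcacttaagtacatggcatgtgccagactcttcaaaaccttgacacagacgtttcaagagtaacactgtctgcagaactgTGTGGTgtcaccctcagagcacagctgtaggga
Il1rl1 at 15.3 kb (chr1:40444793-40444993): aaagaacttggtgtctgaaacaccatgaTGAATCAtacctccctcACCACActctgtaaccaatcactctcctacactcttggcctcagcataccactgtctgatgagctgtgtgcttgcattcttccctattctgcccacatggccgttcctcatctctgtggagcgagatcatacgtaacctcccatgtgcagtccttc
Il18r1 upstream (chr1:40465419-40465551): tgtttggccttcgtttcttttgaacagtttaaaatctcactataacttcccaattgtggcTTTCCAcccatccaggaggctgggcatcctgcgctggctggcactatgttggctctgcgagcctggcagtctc
Il18rap upstream (chr1:40515162-40515361): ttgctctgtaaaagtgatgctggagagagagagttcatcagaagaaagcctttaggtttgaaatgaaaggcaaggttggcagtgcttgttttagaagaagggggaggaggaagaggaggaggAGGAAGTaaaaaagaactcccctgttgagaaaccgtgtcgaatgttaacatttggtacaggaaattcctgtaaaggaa

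The sequences differed in the matches they held. Those of Il1r2, Il1r1 and Il1rl1 at −16.3 kb each held AP-1 matches in a pair, with an IRF and a RUNX match beside them at Il1rl1. The sequence from Il1rl2 held overlapping T-box matches, a RUNX match and a STAT match. At the first start of Il1rl1 the matches were to GATA and RUNX. The joined region covering the Il1rl1 start at 7.0 kb is not printed. It held T-box, ETS and E-box (CAGGTG) matches within 100 bp of the replicate 1 summit. The region of Il1r2 with the highest signal, not printed either, held a T-box match. The stretches before Il18r1 and Il18rap, which are not centred on summits, held an NFAT match and an ETS match, in this order. Within 100 bp of the replicate 1 summit, the Il18r1 promoter region held E-box, RUNX and STAT matches. That of Il18rap held NFAT and RUNX matches there.

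All 6 genes had open regions in both replicates, with 6 to 12 shared regions in the window (gene plus 20 kb each way) and 3 to 9 in the gene body. Il1r1, the longest gene at 92.2 kb, had 13 regions in each replicate and 12 shared. Il1rl1 had 15 and 11 regions with 11 shared, Il1r2 had 10 and 12 with 9 shared, and Il1rl2 had 12 and 10 with 9 shared. Il18r1 had 11 and 9 regions with 9 shared, and Il18rap had 8 and 6 with 6 shared. The members' median of 9 shared regions stood beside a median of 4 (interquartile range 1 to 7) over all 21938 protein-coding genes. Among genes of similar length (the same of 10 equal classes by gene length), the count of Il1rl1 stood at percentile 95.2, that of Il18r1 at 86.5, and those of Il1r1, Il1r2 and Il1rl2 at 79.3, 78.1 and 78.1. Il18rap stood at percentile 59.2, the lowest of the 6. Shared regions covered 10.9% of the window of Il1rl1, 10.4% of that of Il1rl2, 10.3% of that of Il18r1, 9.01% of that of Il18rap, 8.38% of that of Il1r2 and 6.00% of that of Il1r1.

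**Figure D1:**
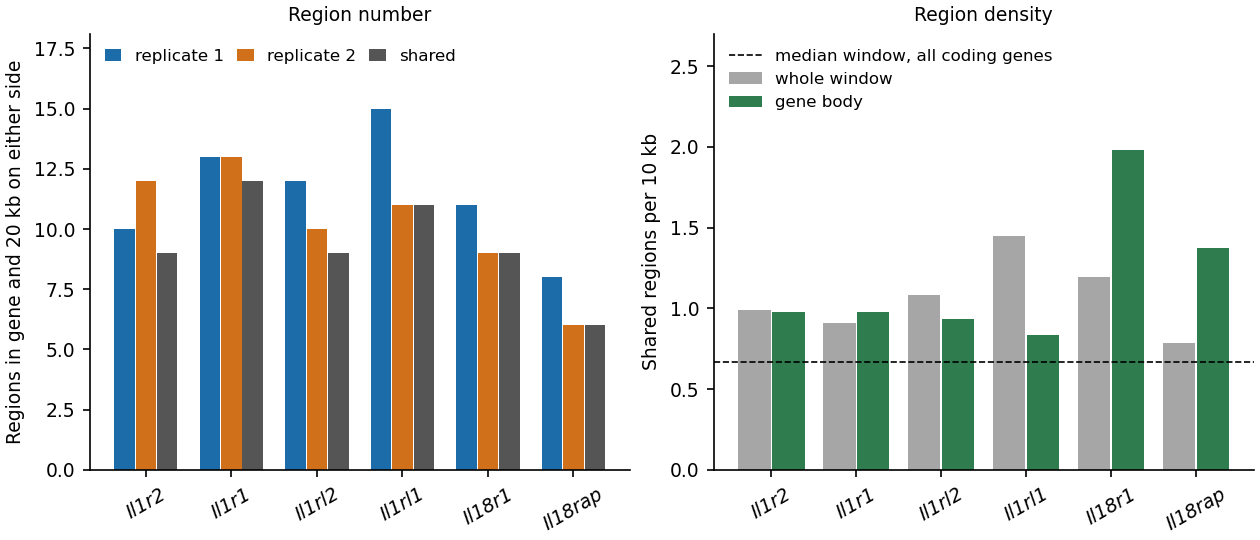
Regions of each member in replicate 1, replicate 2 and both (left) and shared regions per 10 kb of window and of gene body (right), with the median window density of all protein-coding genes as a dashed line. Il1rl1 has the densest window (1.45 per 10 kb) and Il18r1 the densest gene body (1.98 per 10 kb), and all 6 windows lie above the dashed line at 0.669.

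The high count of Il1rl1 came mostly from its neighbour. The end of Il1rl1 and the first start of Il18r1 lie 136 bp apart, so the window of Il1rl1 takes in 7 regions of the Il18r1 body. The body of Il1rl1 overlapped 3 shared regions (0.837 per 10 kb), 1 of which was the promoter region of Il18r1, and only 4 shared regions lay nearest to a start of Il1rl1. Il18r1 was the reverse case. Its body held 7 shared regions (1.98 per 10 kb), the highest body density of the cluster, and no shared region lay in its window alone. Il18rap followed with 5 in the body (1.38 per 10 kb). Il1r2, Il1r1 and Il1rl2 had 5, 9 and 4 in the body (0.977, 0.976 and 0.931 per 10 kb). Of the 45 shared regions, 34 lay in 1 window and 11 in 2, so the windows' counts are not independent.

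**Figure D2:**
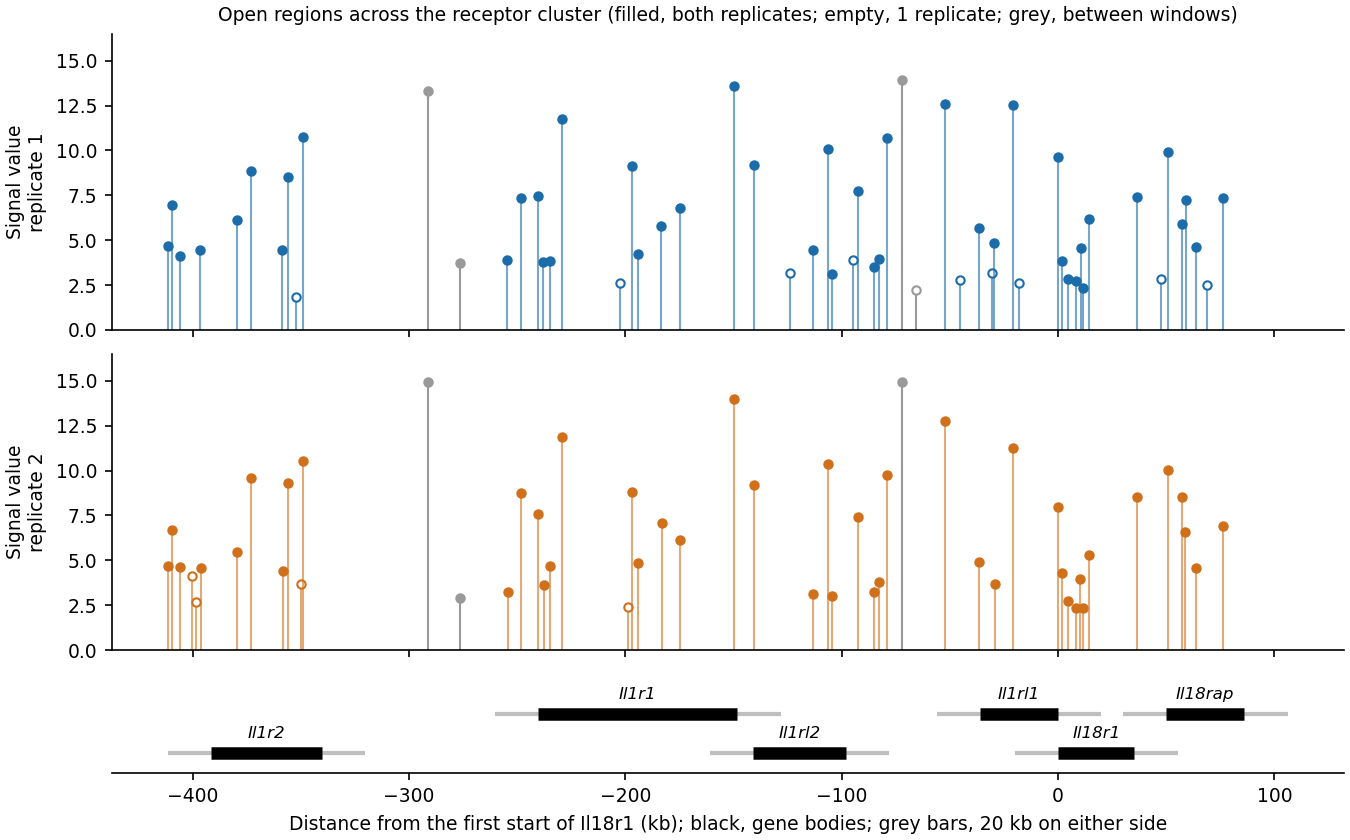
Signal value of each open region (vertical axis, replicate 1 above and replicate 2 below) by distance from the first start of Il18r1 in kb, with gene bodies in black and their 20 kb sides in grey; filled points are shared, empty ones are in 1 replicate, grey ones lie between windows. The 6 weak regions after the start of Il18r1 stand close together, while the highest regions inside the windows lie at the end of Il1r1 (13.6 and 14.0) and before Il1rl1 (12.6 and 12.8).

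Il18r1, the binding chain of the interleukin-18 receptor, had a well-supported promoter region followed by a row of weak regions. The promoter region, chr1:40465384-40466283, covered the annotated starts from 0 to 0.5 kb with a signal of 9.63 and 8.00 and a −log10 q of 220 and 148, the deposited measure of how surely a region was called. Within the gene, signals were 3.83 and 4.29 at 1.9 kb, 2.86 and 2.73 at 4.5 kb, and 2.74 and 2.36 at 8.3 kb. Further in they were 4.58 and 3.95 at 10.4 kb, 2.34 and 2.34 at 11.6 kb, and 6.19 and 5.28 at 14.1 kb. All 6 intronic regions were found in both replicates, and 5 of them lay below the genome-wide median for shared intronic regions, 6.15 and 5.99, in both. The region at 11.6 kb had the lowest mean signal of the 45. The 7 body regions ended 14.3 kb after the first start, and the remaining 20.95 kb of the gene held no region of either replicate. This row of 7 regions, with gaps of at most 12500 bp, spanned 14.5 kb, and 2120 of 28319 such runs in the genome held more regions.

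Il18rap, the accessory chain, had the highest promoter signal of the 6 genes and few other regions. Its promoter region, chr1:40514471-40516755, was 2285 bp wide and had a signal of 9.91 and 10.04 with a −log10 q of 277 and 248. The replicate 1 summit lay 1.1 kb after the first start, in a UTR of the gene, and the summits of the replicates lay 77 bp apart. A second region of 1617 bp, chr1:40541601-40543217, covered the start of a retained-intron transcript at 26.3 kb with a signal of 7.36 and 6.89. Between them lay regions at 7.5 kb (5.90 and 8.52), 9.1 kb (7.24 and 6.61) and 13.9 kb (4.61 and 4.57). The region at 7.5 kb, chr1:40522588-40523211, had the largest difference between replicates among the 45, a ratio of 1.44 of replicate 2 over replicate 1. The 1 shared region between the end of Il18r1 and the Il18rap promoter, chr1:40501592-40502665, had a signal of 7.40 and 8.51 and lay at −13.2 kb from Il18rap.

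Il1rl1, which encodes ST2, had the weakest promoter of the cluster but 2 of its stronger distal regions. The gene is known for distal and proximal promoters that different cell types use. A shared region, chr1:40429028-40429281, ended 289 bp before the first start without covering it, with a signal of 5.68 and 4.91 and a −log10 q of 17.6 and 12.1. A wider joined region, chr1:40436032-40437327, covered the start at 7.0 kb with 4.85 and 3.68, and a −log10 q of 12.9 and 6.44. Replicate 1 had 2 regions there. The one with the signal of 4.85, chr1:40436032-40436551, ended before that start at 40436589. The replicate 2 region covered the start, and the summits of the replicates lay 310 bp apart. The 3 starts at 10.1, 10.2 and 11.1 kb had no region of either replicate within 1 kb, and the nearest shared region was 2300 bp or more away. In contrast to these starts, the intergenic region at −16.3 kb, chr1:40412556-40414056, had a signal of 12.6 and 12.8 (−log10 q 117 and 117). The intronic region at 15.3 kb, chr1:40444595-40445434, had 12.6 and 11.2 (−log10 q 302 and 253). By signal these stood at mean percentiles 85.7 and 82.2 among all shared regions, and the region before the first start stood at 35.1.

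Il1rl2, the interleukin-36 receptor gene, shared its strongest region with Il1r1 and had others deep in the gene and past its end. The shared one, chr1:40315216-40315939 at −9.0 kb, had a signal of 13.6 and 14.0 and lay at the end of Il1r1. The promoter region, chr1:40324486-40325623, covered all 4 annotated starts with a signal of 9.21 and 9.19, and had the highest ratio of observed to expected CpG of the 45 regions (0.435). No shared region lay in the next 26.4 kb. The intronic region chr1:40358639-40360039 at 34.4 kb had 10.1 and 10.4 with a −log10 q of 251 and 257. The intergenic region chr1:40385732-40386718 at 61.7 kb had 10.7 and 9.77, and its −log10 q of 440 and 323 was the highest within the 6 windows in both replicates. Around them lay weaker shared regions, from 3.13 and 3.03 at 36.3 kb to 7.74 and 7.40 at 48.5 kb.

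Il1r1, the interleukin-1 receptor gene, had the strongest signal within the 6 windows at its far end. The region chr1:40315216-40315939 had its replicate 1 summit in a UTR of Il1r1 at 90.6 kb. It had a signal of 13.6 and 14.0 and a −log10 q of 114 and 116. It is the region named above for Il1rl2 and counts in both windows. The intronic region at 11.3 kb, chr1:40235512-40236779, had 11.8 and 11.9 with a −log10 q of 308 and 293. The promoter region of the first start, chr1:40224675-40225268, had 7.45 and 7.61. A second pair of starts 41.5 and 41.6 kb into the gene had a region in replicate 2 alone, chr1:40266592-40266819, with a signal of 2.38. That 228 bp region had a GC content of 73.2% and a CpG observed-to-expected ratio of 0.721, against a highest ratio of 0.435 among the 45 shared regions.

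Il1r2, the decoy receptor gene, had no region of either replicate within 1 kb of its first start, and the nearest shared region lay 4682 bp away. The starts at 10.6, 10.7 and 11.9 kb shared 1 region, chr1:40085159-40087938, the widest of the cluster at 2780 bp, with a signal of 6.14 and 5.49. The annotation also places the starts of the antisense gene Gm16894 and of the unclassified transcript Gm37347 within 1 kb of it, so it cannot be assigned to Il1r2 alone. The highest signal of the window was intronic, at 42.6 kb in chr1:40116339-40116720, with 10.7 and 10.5. The intergenic region at −18 kb, chr1:40055764-40056346, had a signal of 6.93 and 6.68, near the genome-wide medians of 6.92 and 6.72, but a −log10 q of 334 and 285. Past the 42.6 kb region no shared region followed for 57.1 kb, the longest such stretch between the first and the last of the 45. It ended at a region between the windows of Il1r2 and Il1r1.

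All 6 members had a shared region within 1 kb of at least 1 start, as did 65.9% of all protein-coding genes. Their promoter signals were low among the open promoters of protein-coding genes, each gene taken at its strongest promoter region. The median percentile of the 6 among all protein-coding genes with an open promoter was 26.3 by signal and 16.7 by −log10 q. By signal they ran from 39.5 for Il18rap, 33.4 for Il1rl2, 30.8 for Il18r1 and 21.9 for Il1r1 to 12.3 for Il1r2 and 9.77 for Il1rl1. In each replicate Il18rap was highest and Il1r1, Il1r2 and Il1rl1 were the lower part, in this order. The replicate values of Il18r1 (9.63 and 8.00) enclosed those of Il1rl2 (9.21 and 9.19), and those of Il1r2 (6.14 and 5.49) overlapped those of Il1rl1 (5.68 and 4.91), so these neighbours were not separated beyond the spread of 2 replicates. By −log10 q the order was the same in both replicates and set the interleukin-18 receptor genes apart: Il18rap (277 and 248) and Il18r1 (220 and 148) came before Il1rl2 (63.4 and 50.6), Il1r2 (58.3 and 42.6), Il1r1 (46.7 and 38.4) and Il1rl1 (17.6 and 12.1). Among open promoters these are mean percentiles of 62.9 and 45.6 for the first 2 genes and of 17.6 or less for the other 4.

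**Figure D3:**
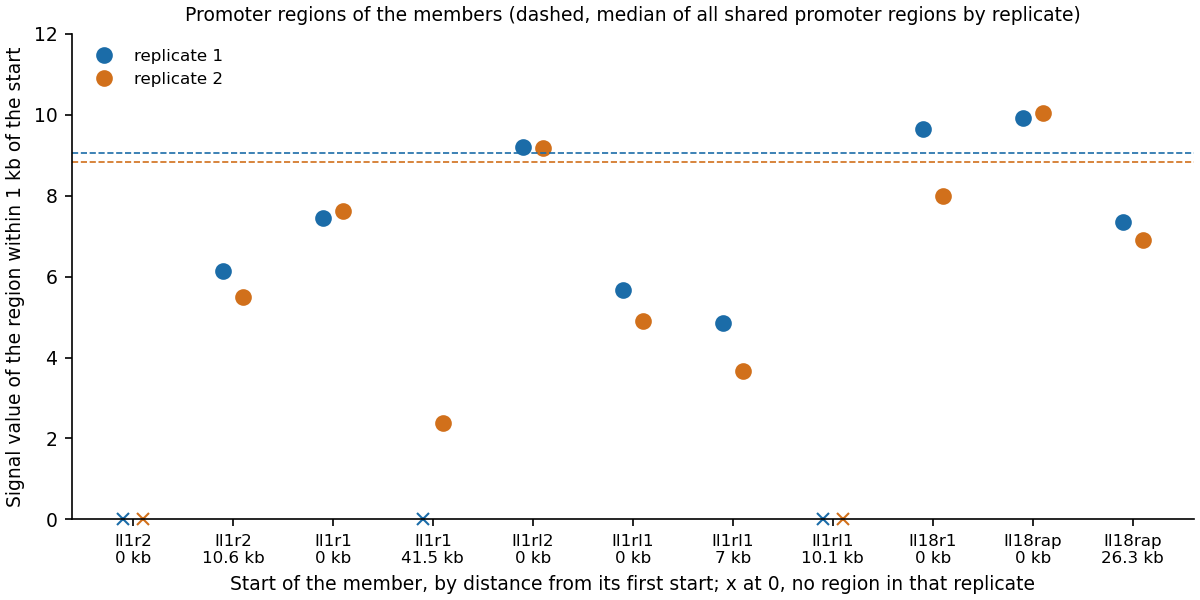
Signal value of the region within 1 kb of each annotated start or group of starts of the members, in replicate 1 and replicate 2, with the median of all shared promoter regions of each replicate as a dashed line (9.05 and 8.84). A cross marks a start with no region in that replicate. The first starts of Il18rap and Il1rl2 lie above both lines, that of Il18r1 lies above the line of replicate 1 alone, and the regions of Il1rl1 lie at 5.68 or lower.

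The 45 shared regions were weaker in signal than shared regions at large but not in −log10 q. Their median signal was 6.14 and 6.14 against 6.92 and 6.72 over all 84380 shared regions, and their median −log10 q was 43.9 and 39.6 against 42.3 and 36.0. The comparison was not matched by class. Genome-wide, the median signal was 6.15 and 5.99 for shared intronic regions, the most frequent class in the cluster, and 9.05 and 8.84 for promoter regions. By signal 5 of the 45 were in the highest 25% of all shared regions and 14 in the lowest 25%. By −log10 q the numbers were 11 and 9. The rank by −log10 q exceeded that by signal by at least 20 percentile points in 12 regions, and the opposite occurred in 0. The same share over all shared regions is not given here, so these counts cannot be read as particular to the cluster. What sets the 2 deposited measures apart is not given in the sources used here. Their median width of 791 bp stood beside 736 bp over all shared regions.

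**Figure D4:**
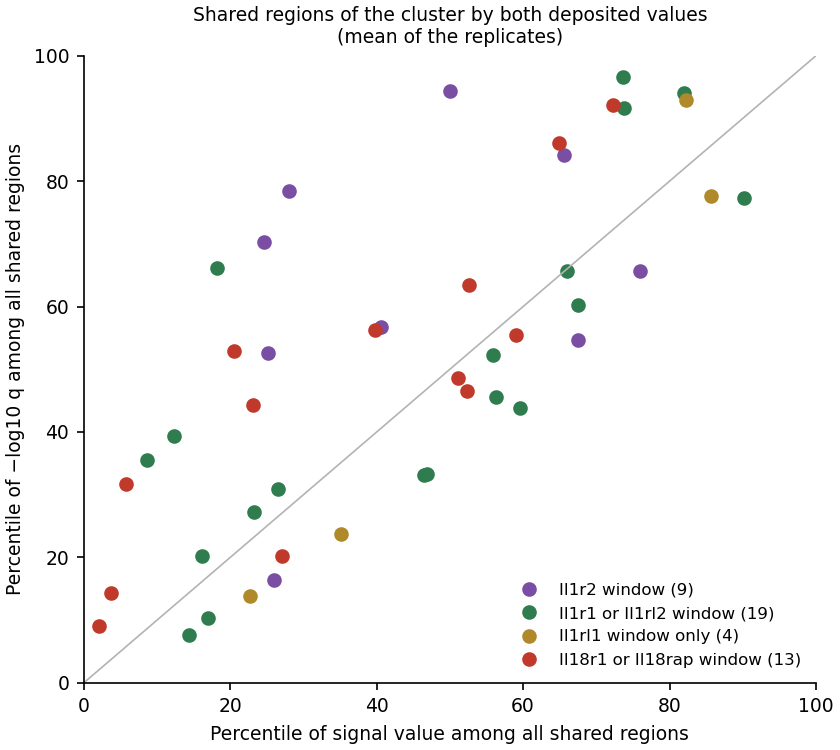
Percentile of each of the 45 shared regions by −log10 q (vertical axis) and by signal value (horizontal axis) among all shared regions, as means of both replicates, coloured by window, with the line of equal rank. In the group at or above 20 points over the line lie 12 regions, and no region lies as far below it. The share over all shared regions is not given.

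Most regions of the cluster were away from promoters. Of the 45, 22 were intronic (48.9%, against 37.2% of all shared regions), 12 intergenic (26.7% against 28.5%), 8 at a promoter (17.8% against 25.5%) and 3 exonic (6.67% against 8.78%). The promoters lay below the median CpG ratio of shared promoter regions. The highest observed-to-expected CpG ratio among the 45 regions was 0.435, at Il1rl2. Over all shared promoter regions the median was 0.549 and the lower quartile 0.255. The ratio was 0.294 to 0.299 at Il18r1, Il1r1 and Il1r2, above that quartile. It was 0.209 and 0.203 at Il18rap and at the first start of Il1rl1, below it.

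In overlap and signal the replicates resembled each other here as they did elsewhere, while their summits lay further apart. In the cluster 47 of 56 regions of replicate 1 (83.9%, 95% Clopper-Pearson interval 71.7 to 92.4) and 46 of 50 of replicate 2 (92.0%, 80.8 to 97.8) overlapped the other list, against 86.6% and 93.0% of all regions. These intervals cover counting error only. The signals of all 45 differed by less than 1.5-fold between replicates, as did 97.8% of all shared regions. Summits lay a median of 22 bp apart, against 13 bp over all shared regions. Of the 45, 41 lay within 100 bp, a share not given for all shared regions.

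The 13 regions of a single replicate had low signals, in a range that overlapped the lowest of the shared regions (2.34 and 2.34). By −log10 q they were not all low. It reached 22.5 in replicate 1 alone, at −2.4 kb of Il18rap, above the 17.6 of the shared region at the first start of Il1rl1. In replicate 2 alone it reached 10.4. In replicate 1 alone the 9 signals ran from 1.84 to 3.91. They lay at 39.2 kb of Il1r2 (1.84), 37.9 kb of Il1r1 (2.63), 17.0 and 45.9 kb of Il1rl2 (3.18 and 3.91), and −9.5, 5.2 and 18 kb of Il1rl1 (2.77, 3.18 and 2.60). The last 2 were at −2.4 and 19.1 kb of Il18rap (2.85 and 2.49). In replicate 2 alone 3 of the 4 belonged to Il1r2, at −8.9, −7.1 and 41.3 kb (4.14, 2.71 and 3.69), and the other was the Il1r1 region at 41.7 kb described above. In these bulk samples a site open in few cells and a site weakly open in all cells cannot be told apart.

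Motif matches were counted within 100 bp of the replicate 1 summit of each of the 45 regions, on both strands, and set beside the share of all 84380 shared regions. RUNX (TGTGGT) and AP-1 (TGANTCA) matches were the most frequent, in 15 regions each (33.3%, exact interval 20 to 49), against 22.8% and 26.0% of all. The T-box motif TCACAC, recognised by T-bet among others, occurred in 12 (26.7%, 14.6 to 41.9) against 16.7%, and the STAT motif TTCNNNGAA in 7 (15.6%, 6.49 to 29.5) against 7.99%. E-box matches (CAGGTG) occurred in 2 (4.44%, 0.543 to 15.1) against 15.1%. The KLF or SP motif GGGCGGG, rich in G and C, occurred in 0 of 45, with an upper limit of 7.87%, against 8.76%. It was the 1 motif of 16 whose share over all shared regions lay outside the interval of the cluster, and these intervals are not adjusted for the 16 motifs. They also treat the 45 neighbouring regions as independent draws. The share over all shared regions was not matched by class, and 17.8% of the cluster's regions were at a promoter against 25.5% of all. Which motifs lay outside the interval changed with the distance from the summit. Within 50 bp the KLF or SP share of all regions was 4.92%, inside the interval of the cluster, while TCACAC was in 22.2% of the cluster (11.2 to 37.1) against 9.78%, outside it. Within 200 bp both lay outside, with TCACAC in 42.2% (27.7 to 57.8) against 27.0% and KLF or SP in 2.22% (0.0562 to 11.8) against 12.8%. Within the cluster, AP-1 matches were in 4 of 12 regions of Il1r1, 4 of 9 of Il1rl2, 4 of 11 of Il1rl1, 3 of 9 of Il1r2 and 2 of 9 of Il18r1, and in 0 of 6 of Il18rap. TCACAC was in 3 of the 6 regions of Il18rap and 4 of 9 of Il1rl2, but in 1 of 12 of Il1r1 and 1 of 9 of Il1r2. RUNX matches were in 7 of 11 regions of Il1rl1, 4 of which also belong to the window of Il18r1.

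**Figure D5:**
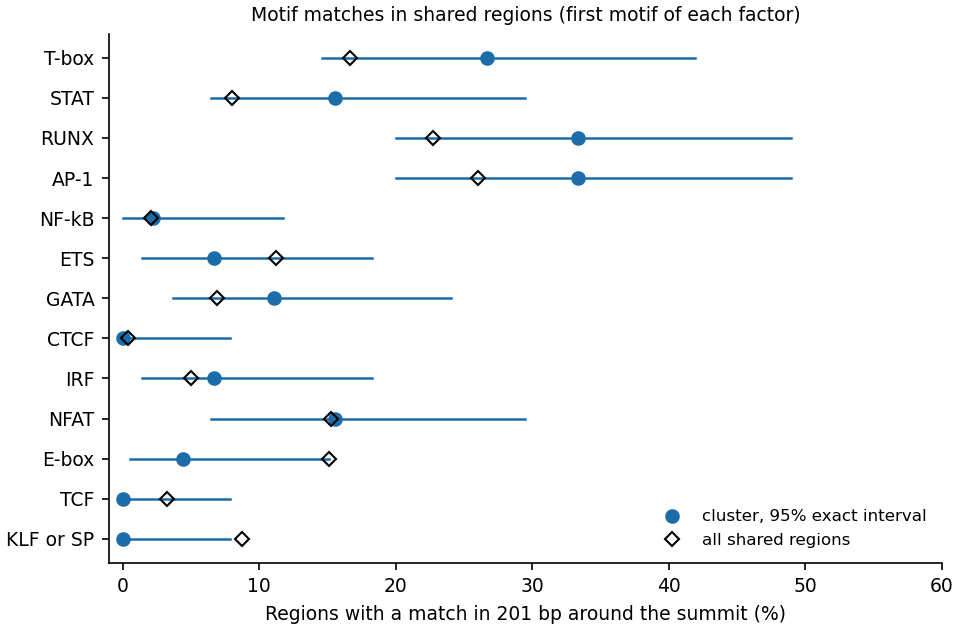
Share of the 45 shared regions of the cluster with a motif match within 100 bp of the summit (points, with 95% exact intervals) and share over all shared regions (diamonds), for the first motif of each factor family. RUNX and AP-1 are the most frequent in the cluster at 33.3%, and the diamond of KLF or SP (8.76%) lies to the right of its interval.

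Outside the cluster, 23 of 32 listed genes of the same pathway (71.9%) had an open promoter, near the 65.9% of all protein-coding genes. The groups within the list differed. The signalling genes, from the adaptor Myd88 to NF-κB and p38, were open at 18 of 18 (100%). Ikbkg, the regulatory subunit of the IκB kinase, had the highest signal (17.4 and 16.8), and Irak3, an inhibitory member of the IRAK family, the lowest (5.62 and 6.27). Ligands and their soluble inhibitors were open at 3 of 10 (30.0%): Il18 (13.1 and 11.8), the interleukin-1 receptor antagonist gene Il1rn (8.88 and 8.44) and the interleukin-18 binding protein gene Il18bp (6.16 and 5.79). Of the other receptors of the family 2 of 4 were open. Il1rap, the accessory chain that Il1r1, Il1rl1 and Il1rl2 share, had a promoter signal of 16.1 and 14.9, above every member. Sigirr, an inhibitory receptor, had 9.09 and 9.77, and Il1rapl1 and Il1rapl2 had no shared region.

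A list of 16 other cytokine receptor genes of T cells gave the cluster's scale. All 16 had an open promoter, against 65.9% of all protein-coding genes. By signal their median percentile among open promoters was 16.2 against 26.3 for the members, while by −log10 q it was 41.6 against 16.7, so the order of both lists depended on the measure. Their promoter signals ran from Ifngr1 at 12.3 and 12.7 down to Il21r at 3.81 and 3.42. Their windows held a median of 11 shared regions (5 to 26) and 1.76 per 10 kb (1.14 to 2.66), against 9 and 1.04 for the members. All 6 member windows were denser than the median gene's, and 4 of the 6 were less dense than every one of the 16 receptor windows. The genes on either side were unlike each other: Map4k4, before Il1r2, had 25 shared regions and a promoter signal of 14.3 and 14.3, while past Il18rap Slc9a4 had 2 and no open promoter, and Slc9a2 had 7 and a promoter signal of 7.82 and 7.40.

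Promoters of the labelled cell type's markers were open, at 5 of 5 T-helper 1 markers and 5 of 5 T cell markers, where 65.9% of all protein-coding genes were open. Their signals were not high. The median percentile among open promoters was 11.2 by signal and 30.9 by −log10 q for the T-helper 1 markers. For the T cell markers it was 34.9 by signal and 48.2 by −log10 q, and for the open mast cell markers 43.5 and 31.7. Since ST2 is also carried by other cells, their markers were counted as well. Open promoters were found at 2 of 6 mast cell markers. Hdc, which makes histamine, had a signal of 12.6 and 13.8, above every member promoter. Its −log10 q of 220 and 220 lay below that of Il18rap (277 and 248). The receptor gene Kit had a signal of 7.20 and 6.91, while Fcer1a, Cpa3, Ms4a2 and Mcpt4 had no open promoter. Open promoters were also present at 1 of 5 Th2 or ILC2 markers (Gata3, 12.7 and 12) and at 3 of 4 regulatory T cell markers. They were also found at 2 of 5 Th17, 1 of 6 myeloid, 2 of 4 NK, 1 of 4 B cell and 2 of 4 epithelial markers. An open promoter is not a transcript level, and the part of other cells in the regions of Il1rl1 was not tested.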

How the data were processed

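Chromatin accessibility was measured in 2 replicates of 1 group of T-helper 1 cells. The deposited files are lists of open regions on mm10, per the labels, 1 list per replicate, each from that replicate's alignments alone. The sources used here do not give the aligner, the region caller or a version. Column 7 is a signal value as the authors deposited it, with an unstated reference. The deposited −log10 of p is in column 8 and that of q in column 9, and the deposited display score of column 5 was not used. The last column places the summit. The smallest deposited −log10 q was 1.01 in replicate 1 and 1.00 in replicate 2. These values belong to single regions and were used to describe and rank regions within each list. Read numbers are not in the lists, so depth is unknown.

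Regions on chromosomes 1 to 19, X and Y were used (89 and 85 others were left out). Overlapping regions of both lists were joined, and a joined region took the strongest signal and the largest −log10 q of each replicate. Genes, starts and sequence came from GENCODE M21 and GRCm38.p6. An open promoter means that both replicates share a region at most 1 kb from a start of the gene, and the strongest such region gave its signal. Regions were classed as promoter (within 1 kb of any annotated start), exonic, intronic or intergenic, in that order. The symbols Il36a, Il36b, Il36g and Il36rn were matched to older annotated symbols through RefSeq synonyms. Printed sequences leave out annotated exons, so that for Il18r1 and Il18rap, whose summits lie in or near exons, the DNA before the first start is shown. Analyses used Python 3.11.15, numpy 2.4.6 and scipy 1.17.1, and joining, counting and motif search were tested on simulated data.

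The members and gene lists were chosen with earlier results of these data known. All members and regions of their windows could be named, and from other lists the highest and lowest promoter and genes without an open promoter where there were 5 or fewer. Il1rn was named after its value was seen. Alternatives varied overlap, q limit, window size, promoter distance, motif window, run gap, ranking measure and each replicate.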

Additional observations from a re-analysis of the deposited data

How the results depend on the processing

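All 6 members kept an open promoter under each of the 6 alternatives, and the total of 45 shared regions stayed within 1.5 times under each of 7, from 32 in gene bodies alone to 56 with replicate 1 alone. With 1 list alone it was 50 (without replicate 1) and 56 (without replicate 2), and the members' counts ranged from 6 to 15. Counts per window moved with the window. Il1rl1 (11) fell to 7 with 10 kb on either side, 3 in the gene body alone and 4 by nearest start, and rose to 17 with 50 kb. In the gene body alone Il1r2 had 5 and Il1rl2 4, and with 50 kb Il18r1 had 16 and Il18rap 15. Ranked by −log10 q, another region led in 4 windows, with a mean signal of 6.81 in place of 10.6 at Il1r2, 11.8 in place of 13.8 at Il1r1, 10.2 in place of 13.8 at Il1rl2 and 11.9 in place of 12.7 at Il1rl1. In gene bodies alone the strongest signals were 10.2 at Il1rl2, 11.9 at Il1rl1 and 8.82 in place of 9.97 at Il18r1. Leaving out either replicate kept the strongest region of all 6 windows. The run at Il18r1 (7 regions) grew to 25 with gaps of up to 25 kb. Motif shares depended on the window. Within 50 bp of the summit they were 4.44% for STAT TTCNNNGAA, 13.3% for RUNX, 15.6% for AP-1, 0% for GATA and 2.22% for NFAT, against 3.97%, 14.1%, 18.8%, 2.99% and 7.23% of all, and RUNX and AP-1 were then no longer more frequent than over all shared regions. Within 200 bp they were 42.2% for T-box TCACAC (27.0% of all), 31.1% for NFAT (29.6%) and 17.8% for E-box (27.8%). The share of TCACAC was above that of all shared regions in each of the 4 settings, from 22.2% (9.78% of all) within 50 bp. These settings use the same 45 regions and overlapping stretches of sequence, so they are not independent. Within 100 bp of the summit of either replicate, the share of all shared regions lay inside the interval of the cluster. Of 32 pathway genes, 23 to 25 had an open promoter. No paired analysis was possible because there is 1 group. Depth is unknown, and its part in the regions found in 1 replicate alone was not tested.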

Other observations

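Strong open regions also lay between the windows of the cluster, outside the 20 kb sides, and so are not among the 45. The region chr1:40392942-40393966, 25.9 kb past the end of Il1rl2 and 36.1 kb before Il1rl1, had a signal of 13.9 and 14.9 and a −log10 q of 417 and 411. Its signal in replicate 2 exceeds that of every region within the windows, and in replicate 1 it does so as well (highest 13.6). The region chr1:40173801-40174586, 49.1 kb past Il1r2 and 50.8 kb before Il1r1, had a signal of 13.3 and 14.9 but a −log10 q of 74.0 and 81.6. A weaker shared region, chr1:40188906-40189264, had 3.74 and 2.92, and 1 region of replicate 1 alone, chr1:40399783-40399970, had 2.22. With these the whole span of 517.6 kb held 48 shared regions. The first of them closes a run of 8 shared regions from the Il1rl2 gene body, 41.9 kb long, and 1655 of 28319 runs in the genome held more.

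The ligand genes without an open promoter, named after their values were seen, were Il33, Il1a, Il1b and the interleukin-36 genes annotated as Il1f5, Il1f6, Il1f8 and Il1f9. Il33 and Il1f8 had a region within 1 kb of a start in replicate 1 alone. With a promoter distance of 2.5 kb in place of 1 kb, Il33 and Il1b counted as open.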
